A study of Mus musculus with 12 samples.

Results

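The comparison set 3 orthotopic mouse breast tumors given an antibody to CSF1R, the receptor of colony stimulating factor 1 (group name aCSF1R), beside the other 9 tumors of the same experiment, 12 tumors in all. The members were chosen by their treatment labels alone, and no measured value entered the choice. All tumors were grown from 4T1 cells, a mouse mammary carcinoma line, in the mammary tissue of Balb/c mice, and each tumor gave 1 bulk RNA-seq library. The 9 reference tumors were 3 given a control IgG, 3 given IL-10-Fc (interleukin-10 joined to an antibody Fc part) and 3 given BF10 (interleukin-10 joined to an antibody against CSF1R). Replicates carry the numbers of the sample titles, which are 4, 6 and 8 for aCSF1R, 3, 6 and 7 for BF10, 2, 4 and 7 for IL-10-Fc and 4, 5 and 7 for control.

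Per the labels, treatment began at a tumor volume of 100 mm3 and ran for 6 doses, while the series description counts 4, so the number of doses is uncertain. The study's methods give clone AFS98 in the mouse IgG2a format as the antibody within BF10 and human interleukin-10 as its other component. Thus 3 of the 9 reference tumors also received an antibody against the receptor, and all 12 tumors received a protein with an antibody Fc part or a whole IgG. The methods give an age of 6 to 8 weeks for the Balb/c mice of the study. The 9 tumors were taken as 1 reference group to describe, with more tumors than 1 control group holds, which transcripts were lower, held or higher after aCSF1R.

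CSF1R is a receptor tyrosine kinase on monocytes, macrophages and osteoclasts. Its ligands CSF1 and IL-34 keep most tissue macrophages alive, and blocking antibodies lower macrophage numbers in many mouse tumors. Tumor macrophages express complement C1q, Fc receptors, scavenger receptors and lysosomal proteases, whereas neutrophils do not depend on this receptor. Macrophages, mast cells and T cells share the tumor with the carcinoma cells, and a bulk library sums the RNA of them all.

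Values are TPM, shares of all transcripts in a library after division by transcript length, a scale on which levels of different genes can be compared. Where 3 TPM values follow each other, they are those of aCSF1R replicates 4, 6 and 8 in that order, and a range with a median covers the other 9 libraries. Differences are on the log2(TPM + 1) scale, aCSF1R minus the mean of the 3 reference group means, which understates the change of genes with low TPM. A gene is said to have fallen or risen if limma gave a Benjamini-Hochberg adjusted p below 0.05 over all 15504 genes tested and the difference reached 1.5-fold. It is called kept if the 95% confidence interval of the difference lay within 2-fold in both directions. The labels do not say whether replicates came from separate mice, so p-values measure the spread between these samples, which may be technical in part.

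The 12 libraries formed 2 sets by the sum of their deposited FPKM values, and the sets cut across the treatments. The sums were 782919 to 921581 in 5 libraries (aCSF1R replicate 8, BF10 replicate 6, control replicates 4 and 7, IL-10-Fc replicate 7) and 609695 to 648413 in the other 7. Mitochondrial transcripts held 5.90% to 9.26% of TPM in the higher-sum set and 3.14% to 3.96% in the lower-sum set, and ribosomal protein transcripts 19.6% to 23.8% and 11.9% to 14.3%. The sets parted along the first principal component, which held 69.5% of the variance. One of 3 aCSF1R libraries and 4 of 9 others were in the higher-sum set. Estimated relative depth was 0.918 to 1.064 of the median library, and 23012 to 25299 genes had a value above 0. Carcinoma markers were present in every library: Epcam had 55.2, 59.8 and 42.3 TPM after aCSF1R and 31.9 to 89.5 (median 52.7) TPM elsewhere, and Krt18 at 1041, 1059.6 and 372 and 521 to 1079 (median 854) TPM.

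In aCSF1R tumors 159 genes fell, 1.03% of those tested, and 1 rose, 0.00645%. The median difference of the genes that fell was -2.09 on the log2 scale, beside 0.03 over all genes. Of them 88 were at least 4-fold and 16 at least 8-fold lower. All 3 aCSF1R libraries lay below all 9 others for 157 of the 159, and the exceptions were Acp5 and Slc9b2, where 1 aCSF1R value was above the lowest reference value. Over all genes such complete separation was seen downward in 2.46% and upward in 0.252%. A further 8003 genes, 51.6%, were kept within 2-fold. The most negative difference of all, -4.40 (SE 1.77) for the predicted gene Gm26377, did not pass, with aCSF1R values of 119, 0 and 2758 TPM against 348 to 3722 (median 1204) TPM, a gene named after its values were seen. At an unadjusted p below 0.05 the counts were 584 lower and 99 higher.

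**Figure D1:**
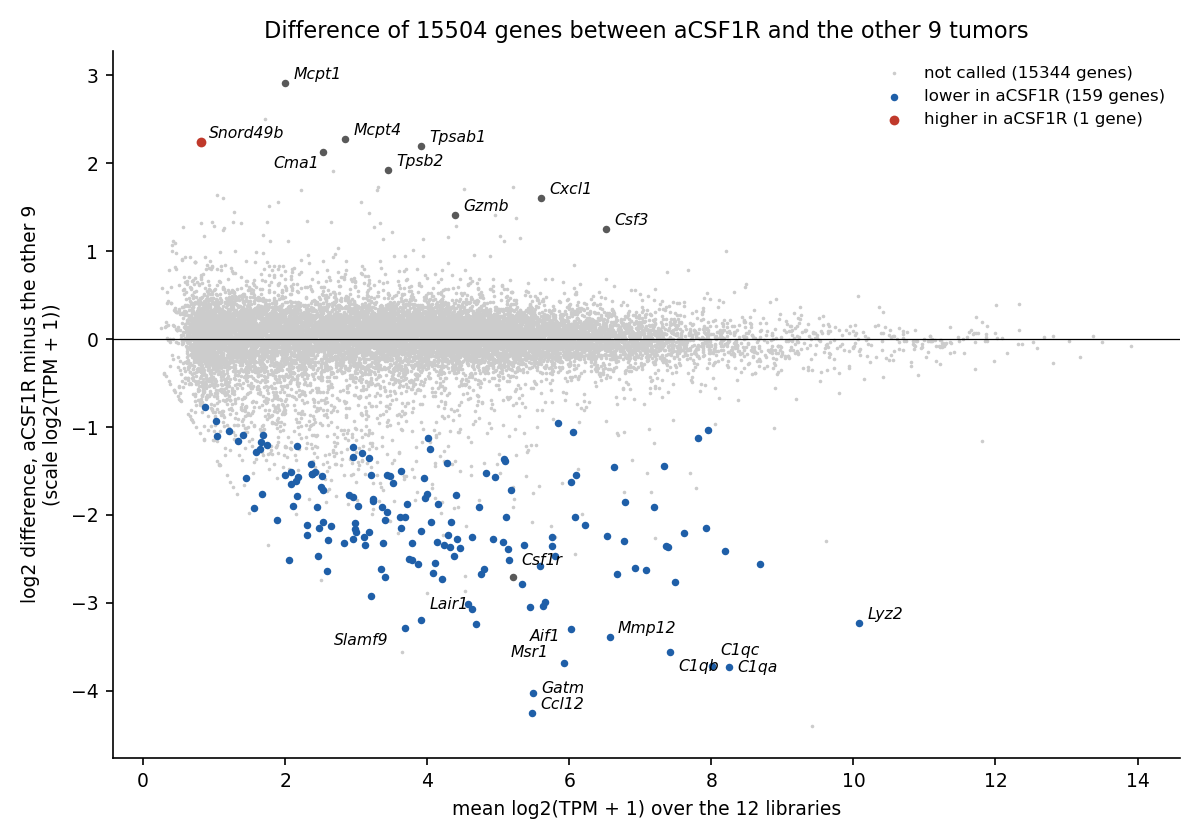
Each point is 1 of 15504 genes, with its mean log2(TPM + 1) over the 12 libraries on the horizontal axis and the log2 difference, aCSF1R minus the other 9 tumors, on the vertical axis; blue marks the 159 genes that fell, red the 1 that rose, and dark grey labelled points are named genes that did not pass the test. Differences below -1 were seen for 454 genes and above 1 for 58, so large differences crowd the area below the zero line.

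With a term for the library set in the model, 509 genes fell (3.28%), 10 rose (0.0645%) and 13311 (85.9%) were kept. All 159 genes were among the 509. Over all genes, aCSF1R libraries lay below the others of their own set in both sets for 7.08% and above for 1.2%. The count of 159 was 78 without aCSF1R replicate 6 and 99 without aCSF1R replicate 8. In bulk tissue, fewer cells of a type and less RNA per cell cannot be told apart, which applies to every fall below.

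Csf1r itself, the receptor that the antibody binds, was at 20.6, 14.1 and 1.26 TPM in the aCSF1R tumors and at 18.8 to 139.8 (median 88.8) TPM in the others. The highest aCSF1R value exceeded the lowest reference value, that of control replicate 4 at 18.8 TPM. Within the lower-sum set, aCSF1R values of 14.1 and 20.6 TPM stood against 88.8 to 139.8 TPM, and within the higher-sum set 1.26 TPM stood against 18.8 to 38.4 TPM, so the groups did not overlap in either set. The difference of -2.71 (SE 0.74) did not pass over the whole table (limma adjusted p = 0.228); it was -1.71 without aCSF1R replicate 8 and -3.34 without aCSF1R replicate 4, and with the library-set term it was -2.94 with an adjusted p of 0.000130. A two-sided exact permutation test of this 1 gene over the 12 libraries gave p = 0.0182, where 0.00909 is the smallest that 3 against 9 tumors allow.

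Neither ligand of the receptor passed the test. Csf1, the main ligand, had 129, 139 and 18.6 TPM after aCSF1R and 17.5 to 153 (median 105) TPM in the others, a difference of 0.10 (SE 0.79). Il34, the second ligand, was at 45.6, 52.8 and 17.5 against 16.1 to 44.8 (median 30.9) TPM, a difference of 0.16 (SE 0.38). Both ligands overlapped between the groups, with 95% intervals of -1.63 to 1.83 and -0.67 to 1.00. Csf2ra, a subunit of the GM-CSF receptor, was at 16.5, 10.3 and 1.32 TPM against 15.2 to 103 (median 42.2) TPM, and fell only in the fit with the library-set term (limma adjusted p = 0.397 without it and 0.000554 with it). Of the 11 tested genes of the CSF1 and GM-CSF axis, 0 fell (1.03% over all genes). With the library-set term 3 did (3.28% over all genes), namely Csf1r, Csf2ra and Csf2rb.

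The 15 genes named as leading falls were the largest past the threshold with no overlap between groups. They are described by their values, since the choice of genes without overlap fixes the result of a permutation test.

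Ccl12, a CC chemokine that attracts monocytes, had the largest difference among the genes that fell. Its gene lies at chr11:82101845-82103400 on the plus strand (GRCm38, as all positions here). It was at 5.79, 2.53 and 3.77 TPM in aCSF1R and at 58.0 to 172 (median 99.3) TPM in the others, so aCSF1R retained 4.12% of the reference mean. The difference was -4.26 (SE 0.29), with a limma adjusted p of 5.53e-05. The related monocyte chemokines did not pass, with Ccl2 at 44.9, 19.4 and 26.9 against 16.4 to 67.2 (median 51.4) TPM and Ccl7 at 26.01, 10.3 and 25.6 against 15.7 to 76.8 (median 41.3) TPM (limma adjusted p = 1 for both).

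Gatm, the enzyme that makes the precursor of creatine from arginine and glycine (chr2:122594467-122611303), was at 8.62, 6.23 and 1.44 TPM against 45.4 to 167 (median 97.1) TPM, which is 5.50% of the reference mean. The difference was -4.02 (SE 0.49) (limma adjusted p = 0.00171). Arg1, which splits arginine and marks many tumor macrophages, also fell, from 143 to 443 (median 202) TPM in the others to 76.9, 60.2 and 22.7 TPM (difference -2.35 (SE 0.47), limma adjusted p = 0.0425). Every aCSF1R library was below every reference library for both enzymes.

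The 3 chains of C1q, the recognition unit of the classical complement pathway, all fell. Their genes lie side by side on chromosome 4, C1qa at chr4:136895917-136898803, C1qc at chr4:136889804-136893065 and C1qb at chr4:136880129-136886187. C1qa was at 76.1, 49.2 and 20.6 TPM against 459 to 823 (median 572) TPM, C1qb at 51.8, 34.0 and 9.54 against 227 to 387 (median 336) TPM and C1qc at 50.2, 31.9 and 29.5 against 354 to 856 (median 428) TPM. Their differences were -3.73 (SE 0.31), -3.56 (SE 0.40) and -3.71 (SE 0.25), with limma adjusted p-values of 0.000176, 0.00109 and 5.53e-05. In aCSF1R replicate 8 the 3 chains stood at 20.6, 9.54 and 29.5 TPM, whereas the lowest reference values were 459, 227 and 354 TPM.

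Msr1, a scavenger receptor for modified lipoproteins, had the most even aCSF1R values of the 15, at 7.59, 7.61 and 8.75 TPM, beside 94.4 to 148 (median 111) TPM in the others. Its difference of -3.69 (SE 0.18) had the lowest adjusted p of the 15 (9.37e-06, limma). Mmp12, the macrophage elastase, was at 9.69, 14.9 and 24.3 against 100.8 to 269 (median 172) TPM, a difference of -3.39 (SE 0.34). Aif1, the actin-binding protein IBA1 used to stain macrophages, was at 14.9, 10.8 and 7.70 against 89.7 to 139 (median 108.2) TPM, a difference of -3.29 (SE 0.20). Lyz2, lysozyme of macrophages and neutrophils, was the most abundant gene that fell, at 254, 181 and 174 against 1105 to 3259 (median 1934) TPM with a difference of -3.23 (SE 0.27) (limma adjusted p = 0.000191).

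The other 6 leading falls are 5 surface receptors or receptor partners and a survival gene. Slamf9, a receptor of the SLAM family, was at 1.89, 1.48 and 0.770 against 14.1 to 35.3 (median 21.2) TPM, and Lair1, an inhibitory receptor for collagen, at 2.19, 1.53 and 1.91 against 18.4 to 32.7 (median 23.9) TPM. The lectins Clec4a2, an inhibitory receptor, and Clec5a, an activating one, had differences of -3.23 (SE 0.36) and -3.07 (SE 0.29). Ly86, the partner of the receptor CD180, was at 9.95, 7.17 and 6.97 against 44.9 to 149 (median 58.2) TPM. Bcl2a1b, a survival gene of the BCL2 family, had a difference of -3.03 (SE 0.33), and its near-identical copies Bcl2a1a and Bcl2a1d had -2.62 (SE 0.30) and -2.31 (SE 0.33). Reads cannot be assigned with certainty among these 3 copies, so their separate values are uncertain.

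**Figure D2:**
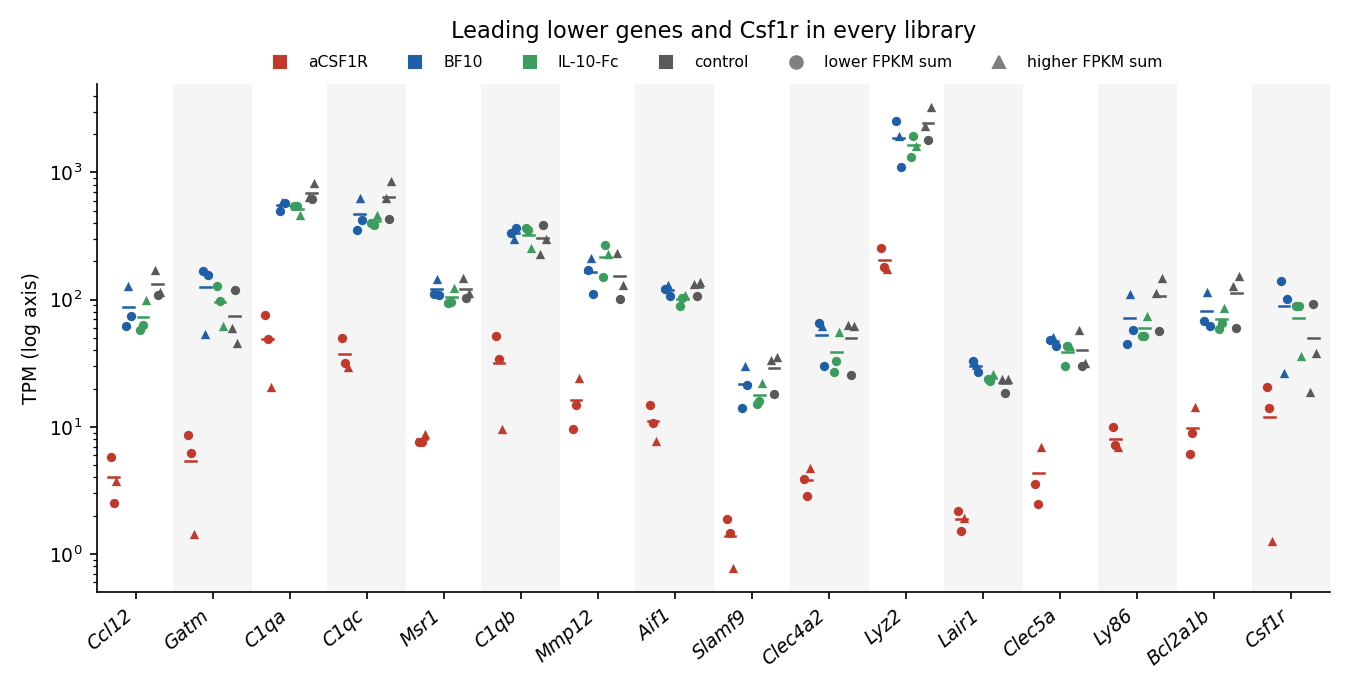
TPM (log axis) of the 15 leading falls and of Csf1r in all 12 libraries, with short lines for group means, colors for groups, circles for lower-sum and triangles for higher-sum libraries. For the 15 genes every red point is below every other point, and for Csf1r the red points reach from 1.26 to 20.6 TPM and overlap the lowest control library.

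The promoters of 4 leading falls and of 1 mast cell protease are shown so that their start regions can be read side by side. Each is the stretch of 250 bases before the start annotated by RefSeq, printed from RefSeq on build GRCm38.p6, 5′ to 3′ on the strand of the gene. Capitals mark GAGGAA or its reverse complement TTCCTC, a core bound by the myeloid factor PU.1, whose gene Spi1 is described below. They lie at chr11:82101595-82101844 (plus strand), chr2:122611278-122611527, chr4:136892915-136893164, chr4:136886201-136886450 and chr14:56062311-56062560 (minus strand).
Ccl12: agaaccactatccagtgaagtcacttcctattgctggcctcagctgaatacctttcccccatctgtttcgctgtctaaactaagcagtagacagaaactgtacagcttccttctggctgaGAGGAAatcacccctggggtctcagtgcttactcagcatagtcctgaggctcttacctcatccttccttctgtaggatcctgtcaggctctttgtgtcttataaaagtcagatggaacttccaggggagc
Gatm: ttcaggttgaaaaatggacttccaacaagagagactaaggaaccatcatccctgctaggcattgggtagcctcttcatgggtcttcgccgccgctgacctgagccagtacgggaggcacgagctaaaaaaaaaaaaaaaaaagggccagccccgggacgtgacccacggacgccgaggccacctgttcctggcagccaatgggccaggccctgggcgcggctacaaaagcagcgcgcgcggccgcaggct
C1qc: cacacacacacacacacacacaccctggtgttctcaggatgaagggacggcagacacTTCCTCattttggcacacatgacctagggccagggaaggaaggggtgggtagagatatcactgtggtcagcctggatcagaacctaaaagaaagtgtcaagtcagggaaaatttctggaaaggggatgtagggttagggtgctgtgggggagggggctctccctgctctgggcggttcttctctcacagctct
C1qb: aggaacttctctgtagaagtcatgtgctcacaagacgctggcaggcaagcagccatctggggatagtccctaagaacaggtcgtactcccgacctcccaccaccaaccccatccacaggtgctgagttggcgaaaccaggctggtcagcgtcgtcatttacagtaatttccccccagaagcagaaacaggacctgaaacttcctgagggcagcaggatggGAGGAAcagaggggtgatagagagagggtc
Mcpt4: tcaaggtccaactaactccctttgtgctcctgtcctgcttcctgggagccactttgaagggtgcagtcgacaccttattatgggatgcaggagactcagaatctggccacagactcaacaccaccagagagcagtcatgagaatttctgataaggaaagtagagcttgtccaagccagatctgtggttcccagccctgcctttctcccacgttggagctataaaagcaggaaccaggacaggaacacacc

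The match begins 130 bases before the start in Ccl12, 193 in C1qc and 30 in C1qb, and there is none in the windows of Gatm and Mcpt4. Of the 15 leading falls 13 had a promoter entry, and 9 of those 13 held the core in the 300 bases from 250 before to 50 after the start. Over the genes that fell, 114 had an entry and 60 of their 134 promoters (44.8%) held it, against 27.2% of the 13551 promoters of tested genes and 28.3% of all 32851. CACGTG, searched as a second motif on both strands (it can share only an end base with the first), was in 10.4%, 9.67% and 7.15%. These are matches of letters and say nothing of binding.

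Macrophage markers were among the lists with the most negative medians. The gene lists were chosen with earlier results of these data known, so list counts and medians are descriptions and no test. Of 20 tested, 9 fell and 18 did with the library-set term (1.03% and 3.28% over all genes). The median difference of these markers was -2.09, where all genes had 0.03. Their summed level was 277 to 449 TPM in the aCSF1R tumors and 1892 to 3968 TPM in the others. Lyz2, already named as a leading fall, alone gave 174 to 254 and 1105 to 3259 TPM of these sums. Adgre1, which encodes the macrophage antigen F4/80, was at 6.00, 3.20 and 1.44 against 15.9 to 36.3 (median 18.2) TPM (difference -2.31 (SE 0.32), limma adjusted p = 0.00397). Cd68, a lysosomal membrane protein, was at 31.2, 21.4 and 6.63 against 33.8 to 195 (median 84.1) TPM (limma adjusted p = 0.102, and 0.000130 with the library-set term). Mrc1, the mannose receptor CD206, was at 7.98, 6.82 and 3.40 against 32.9 to 65.8 (median 41.5) TPM, a difference of -2.67 (SE 0.24).

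Several markers of resident macrophages were at low TPM throughout. Folr2 fell, from 9.60 to 25.1 (median 12.4) TPM to 5.74, 3.38 and 0.629 TPM (difference -2.05 (SE 0.41), limma adjusted p = 0.0441), and so did Pf4, a chemokine of platelets and macrophages, at 21.7, 18.3 and 37.2 against 101.4 to 258 (median 173) TPM. Timd4 and Lyve1 had values of 0.358, 0.443 and 0.152 and 1.301, 1.34 and 0.684 TPM beside 0.362 to 5.49 (median 1.25) and 0.748 to 10.1 (median 2.57) TPM, and neither passed in either fit. Cx3cr1, the fractalkine receptor, was at 0.520, 0.574 and 0.0543 against 2.35 to 25.7 (median 7.77) TPM without overlap, and passed only with the library-set term (limma adjusted p = 0.000326). It met the filter through reference libraries alone, so its separation and call are no support for a fall. Cx3cr1 is among the macrophage markers counted as lower with that term.

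Fc receptors, through which macrophages take up antibody-coated targets, fell in all but 1 of the members tested. Of 6 tested 5 fell (1.03% over all genes), with a median of -2.28. Their summed level was 185 to 226 TPM in the aCSF1R tumors and 675 to 1043 TPM in the others. The high-affinity receptor Fcgr1 was at 5.98, 4.17 and 2.45 against 31.6 to 52.6 (median 38.7) TPM, and the signalling chain Fcer1g at 54.5, 46.4 and 43.8 against 213 to 387 (median 247) TPM. The inhibitory Fcgr2b was at 60.8, 47.2 and 52.7 against 166 to 254 (median 209) TPM, so activating and inhibitory receptors both fell. The exception was Fcgrt, the receptor that recycles IgG, at 50.8, 47.7 and 52.0 against 53.9 to 131 (median 93.2) TPM (limma adjusted p = 0.653), although its libraries also separated.

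The MS4A family of membrane proteins split by member. Ms4a4c, Ms4a6b, Ms4a6c, Ms4a6d and Ms4a7 fell, 5 of 10 (1.03% over all genes). Their differences ran from -2.18 for Ms4a4c to -2.99 for Ms4a6c. Ms4a4d was kept, at 13.6, 8.64 and 6.40 against 5.34 to 18.5 (median 8.19) TPM with an interval of -0.76 to 0.70, and Ms4a4b, a member of T cells, was at 11.8, 12.4 and 8.52 against 8.83 to 23.5 (median 15.1) TPM. Ms4a3, a gene of granulocyte precursors, had a difference of -0.19 (SE 0.86).

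Among C-type lectins 4 of 12 fell (1.03% over all genes). Besides the pair named above these were Clec4n, the activating receptor dectin-2, at 19.96, 18.8 and 31.3 against 65.3 to 174 (median 83.3) TPM, and Clec12a at 2.83, 1.98 and 4.83 against 5.94 to 60.9 (median 17.4) TPM. Clec4d and Clec4e, receptors for mycobacterial lipids also made by neutrophils, had differences of -0.53 (SE 0.47) and -0.47 (SE 0.36) and overlapped between groups. Among paired inhibitory and activating receptors 5 of 18 fell (Lair1, Pilra, Cd300c2, Sirpb1a and Lilrb4a). With the library-set term 13 of them fell (3.28% over all genes). Pilra was at 3.50, 2.85 and 4.55 against 21.2 to 42.3 (median 25.1) TPM and Cd300c2 at 7.28, 4.33 and 5.45 against 23.3 to 45.0 (median 30.8) TPM. Of 7 SLAM family receptors Slamf9 alone fell without the library-set term, and 4 fell with it (1.03% and 3.28% over all genes). Sirpa, the receptor for the CD47 signal, was at 43.5, 34.8 and 5.86 against 22.3 to 148 (median 73.5) TPM and passed only with that term (limma adjusted p = 1 without and 0.00602 with it).

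Toll-like receptors divided into members that fell and members that were kept. Tlr1, Tlr7, Tlr8 and Tlr13 fell, and so did Ly86 and Cd180, 6 of 15 in all (1.03% over all genes). Tlr13, a sensor of bacterial ribosomal RNA, was at 4.16, 3.07 and 4.62 against 10.9 to 24.4 (median 14.4) TPM, and Tlr8 at 1.66, 1.48 and 1.52 against 4.48 to 9.48 (median 5.94) TPM. Tlr2, Tlr3, Tlr4, Tlr5, Tlr6 and Ly96 were kept, 6 of 15 (51.6% over all genes). Tlr4, the receptor for lipopolysaccharide, was at 10.1, 11.9 and 18.2 against 10.4 to 20.9 (median 14.2) TPM with an interval of -0.72 to 0.42, and Tlr2 had an interval of -0.65 to 0.58.

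Complement genes outside C1q did not fall, with 1 exception. Cfp, which encodes properdin, the stabilizer of the alternative pathway, was at 17.4, 17.9 and 9.76 against 69.8 to 118 (median 85.9) TPM (difference -2.47 (SE 0.23), limma adjusted p = 0.000362). The proteases that act with C1q, C1ra and C1s1, had differences of 0.09 (SE 0.54) and 0.28 (SE 0.40), and C3, the central component, 0.63 (SE 0.79). Of 19 complement genes 4 fell and 3 were kept (C1s2, Cfb and Cd46), and the list median was -0.11. Over all genes 1.03% fell and 51.6% were kept. The receptors C3ar1 and C5ar1 passed with the library-set term, at 5.98, 3.49 and 1.79 against 8.23 to 26.4 (median 16.0) TPM and 5.79, 4.07 and 0.651 against 4.56 to 44.5 (median 16.3) TPM.

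Lysosomal enzymes were as mixed. Ctss, a cathepsin that trims the invariant chain for antigen presentation, was at 117, 97.8 and 108.2 against 473 to 884 (median 602) TPM (difference -2.56 (SE 0.20), limma adjusted p = 0.000101), and Ctsc, which activates granule proteases, at 77.0, 44.5 and 20.9 against 195 to 413 (median 286) TPM. Lgmn and Acp5 were also among the genes that fell, 5 of 25 in all, and 11 with the library-set term (1.03% and 3.28% over all genes). Ctsl, at 1262, 1267 and 2450.4 against 963 to 1504 (median 1269.6) TPM, and Lamp2, at 182, 182 and 290.5 against 171 to 256 (median 204) TPM, were kept, with intervals of -0.12 to 0.84 and -0.36 to 0.51. The 6 subunits of the phagocyte oxidase all had negative differences, -0.93 (SE 0.25) for Cyba among them. Without the library-set term 1 of them passed, and all 6 passed with it (1.03% and 3.28% over all genes).

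Chemokines and their receptors fell in part (1.03% of all genes fell). Besides Ccl12, Ccl6 was at 88.0, 87.1 and 63.5 against 159.8 to 639.7 (median 348) TPM (limma adjusted p = 0.00175), which makes 2 of 13 CC chemokines. Cxcl16, the ligand of CXCR6, was the only CXC chemokine of 12 that fell, at 66.6, 39.3 and 35.2 against 86.4 to 143 (median 138) TPM, and it did not pass when scaled by the median of ratios. Among 9 receptors 3 fell, among them Ccr1 and Ccr2, with Ccr2, the receptor that brings monocytes into tissue, at 13.8, 9.23 and 11.01 against 35.9 to 88.2 (median 60.7) TPM. Ccr1 was at 11.1, 6.25 and 18.9 against 35.2 to 82.5 (median 45.4) TPM. Cxcr3 and Cxcr2, receptors of T cells and neutrophils, had differences of -0.07 (SE 0.52) and 0.07 (SE 0.85).

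Of 18 myeloid transcription factors Spi1 and Tfec fell (1.03% over all genes). Spi1, which encodes PU.1, was at 13.9, 8.96 and 4.47 against 23.2 to 99.7 (median 46.0) TPM (difference -2.28 (SE 0.36), limma adjusted p = 0.0107), and Tfec at 1.01, 1.07 and 0.998 against 4.46 to 9.26 (median 6.77) TPM. Maf, a factor of mature macrophages, had a difference of -1.24 (SE 0.43) and passed only with the library-set term. Cebpb was kept at 209, 193 and 439.7 against 169 to 389 (median 238) TPM, as were Batf3, Id2, Zbtb46 and Runx1. Irf8 had a difference of -0.73 (SE 0.62) and passed in neither fit.

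Osteoclast genes, expressed when macrophage precursors fuse, fell in part. Atp6v0d2, Acp5, Ocstamp, Dcstamp and Oscar fell, 5 of 9 (1.03% over all genes), with a list median of -2.06. Ocstamp, which encodes a fusion protein, was at 0.260, 0.0984 and 0.0217 against 1.19 to 12.3 (median 6.48) TPM, and Atp6v0d2, a proton pump subunit, at 0.585, 0.508 and 0.477 against 1.11 to 28.02 (median 9.18) TPM. Both met the filter through reference libraries alone, so their calls are no support for a fall. They are among the 5 of 9 and enter the list median. Ctsk, a bone matrix protease also made by fibroblasts, was at 69.5, 40.02 and 31.2 against 32.2 to 763 (median 243) TPM with 1 reference library within the aCSF1R range (limma adjusted p = 0.126).

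Genes linked to lipid-laden macrophages did not move together. Trem2, a lipid-sensing receptor, and its adaptor Tyrobp fell, at 9.12, 5.05 and 2.11 against 17.0 to 59.6 (median 33.0) TPM and 81.2, 56.5 and 123 against 301 to 639.8 (median 494) TPM, as did Apoc2. Apoe was at 675, 407 and 48.4 against 506 to 2395 (median 1244) TPM and passed only with the library-set term (limma adjusted p = 0.00250). Spp1, osteopontin, was at 4119, 4419 and 13949 against 1606 to 10286 (median 4222) TPM. Cd9, Lgals3 and Plin2 were kept, so that 3 of 17 fell and 3 were kept (1.03% and 51.6% over all genes). Among genes of macrophage state Arg1 and Gatm fell, while Nos2, the nitric oxide synthase, had a difference of 0.78 (SE 0.92), Il1b -0.67 (SE 0.39) and Il10 0.52 (SE 0.32). Scavenger and phagocytic receptors showed 2 falls of 14 (Msr1 and Mrc1), and 7 with the library-set term (1.03% and 3.28% over all genes). Axl, a receptor for dying cells also made by carcinoma cells and fibroblasts, was kept at 337, 369.7 and 200.4 against 185 to 342 (median 289) TPM.

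The counts of several lists rested on single libraries. With any 1 library left out, 7 to 9 macrophage markers, 5 Fc receptors, 3 to 5 C-type lectins and 2 to 3 CC chemokines fell. Without aCSF1R replicate 6 the counts were 3 for the MS4A family, 3 for paired receptors, 1 for Toll-like receptors, 1 for osteoclast genes, 1 for lipid-associated genes, 1 for transcription factors and 0 for Cxcl16 and the checkpoint genes. Without aCSF1R replicate 8 they were 2 for Toll-like receptors, 1 for osteoclast genes, 1 for lipid-associated genes, 1 for transcription factors and 0 for Cxcl16, and without aCSF1R replicate 4 they were 3 for Toll-like receptors, 1 for osteoclast genes and 1 for checkpoint genes. Toll-like receptors had 3 falls without control replicate 4 or 7 or IL-10-Fc replicate 4, and osteoclast genes 3 without control replicate 4 or any 1 IL-10-Fc library. Lysosomal falls numbered 2 or 3 without any 1 library other than BF10 replicate 6 and control replicate 7, and the single calls of Arg1, Srgn and Klrk1 each failed when any 1 of 5 to 10 libraries was left out.

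Each reference group was also compared alone. Over all genes the median differences from BF10, IL-10-Fc and control were -0.06, -0.11 and 0.24. Tested in the same fit, 114 genes were lower than in BF10 (0.735%), 84 than in IL-10-Fc (0.542%) and 88 than in control (0.568%), and with the library-set term the counts were 429, 328 and 300. Higher than in these groups were 0 genes in each comparison without that term in limma, and 8, 2 and 12 with it. Ccl12 differed by -4.13, -3.90 and -4.74 from the 3 groups in that order, and C1qa by -3.66, -3.56 and -3.98. Csf1r differed by -3.03, -2.90 and -2.21. These 3 comparisons share the aCSF1R tumors, and their differences from one another were not tested.

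Without the library-set term, no neutrophil marker and 2 of 14 monocyte markers passed the test. With it 1 of 20 neutrophil, 4 of 14 monocyte and 2 of 13 dendritic cell markers fell (3.28% over all genes). Over all genes 1.03% fell and 51.6% were kept, for comparison with the counts in this paragraph. Of 20 neutrophil markers 0 fell and 0 rose, and 0 were kept, their intervals being wide. S100a8 was at 349.8, 143 and 1362 TPM in aCSF1R and at 241 to 6522 (median 611) TPM in the others, and Ngp, a granule protein, at 25.3, 7.00 and 25.9 and 7.08 to 1573 (median 22.3) TPM. Of 14 monocyte markers Ccr2 and Gngt2 fell, while Ly6c2, the marker of inflammatory monocytes, was at 13.2, 15.3 and 34.0 against 9.51 to 67.4 (median 27.4) TPM (difference -0.38 (SE 0.48)) and S100a4 was kept. Primary granule genes had 0 falls of 5, with Mpo at 2.72, 0.951 and 2.99 against 0.482 to 136 (median 3.60) TPM. Of 13 dendritic cell markers 0 fell and 5 were kept, among them Clec9a at 0.748, 0.459 and 0.629 against 0.485 to 1.59 (median 0.603) TPM. The most negative difference of the 13 was -1.87. For 2 of them all aCSF1R libraries lay below the others (2.46% over all genes).

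**Figure D3:**
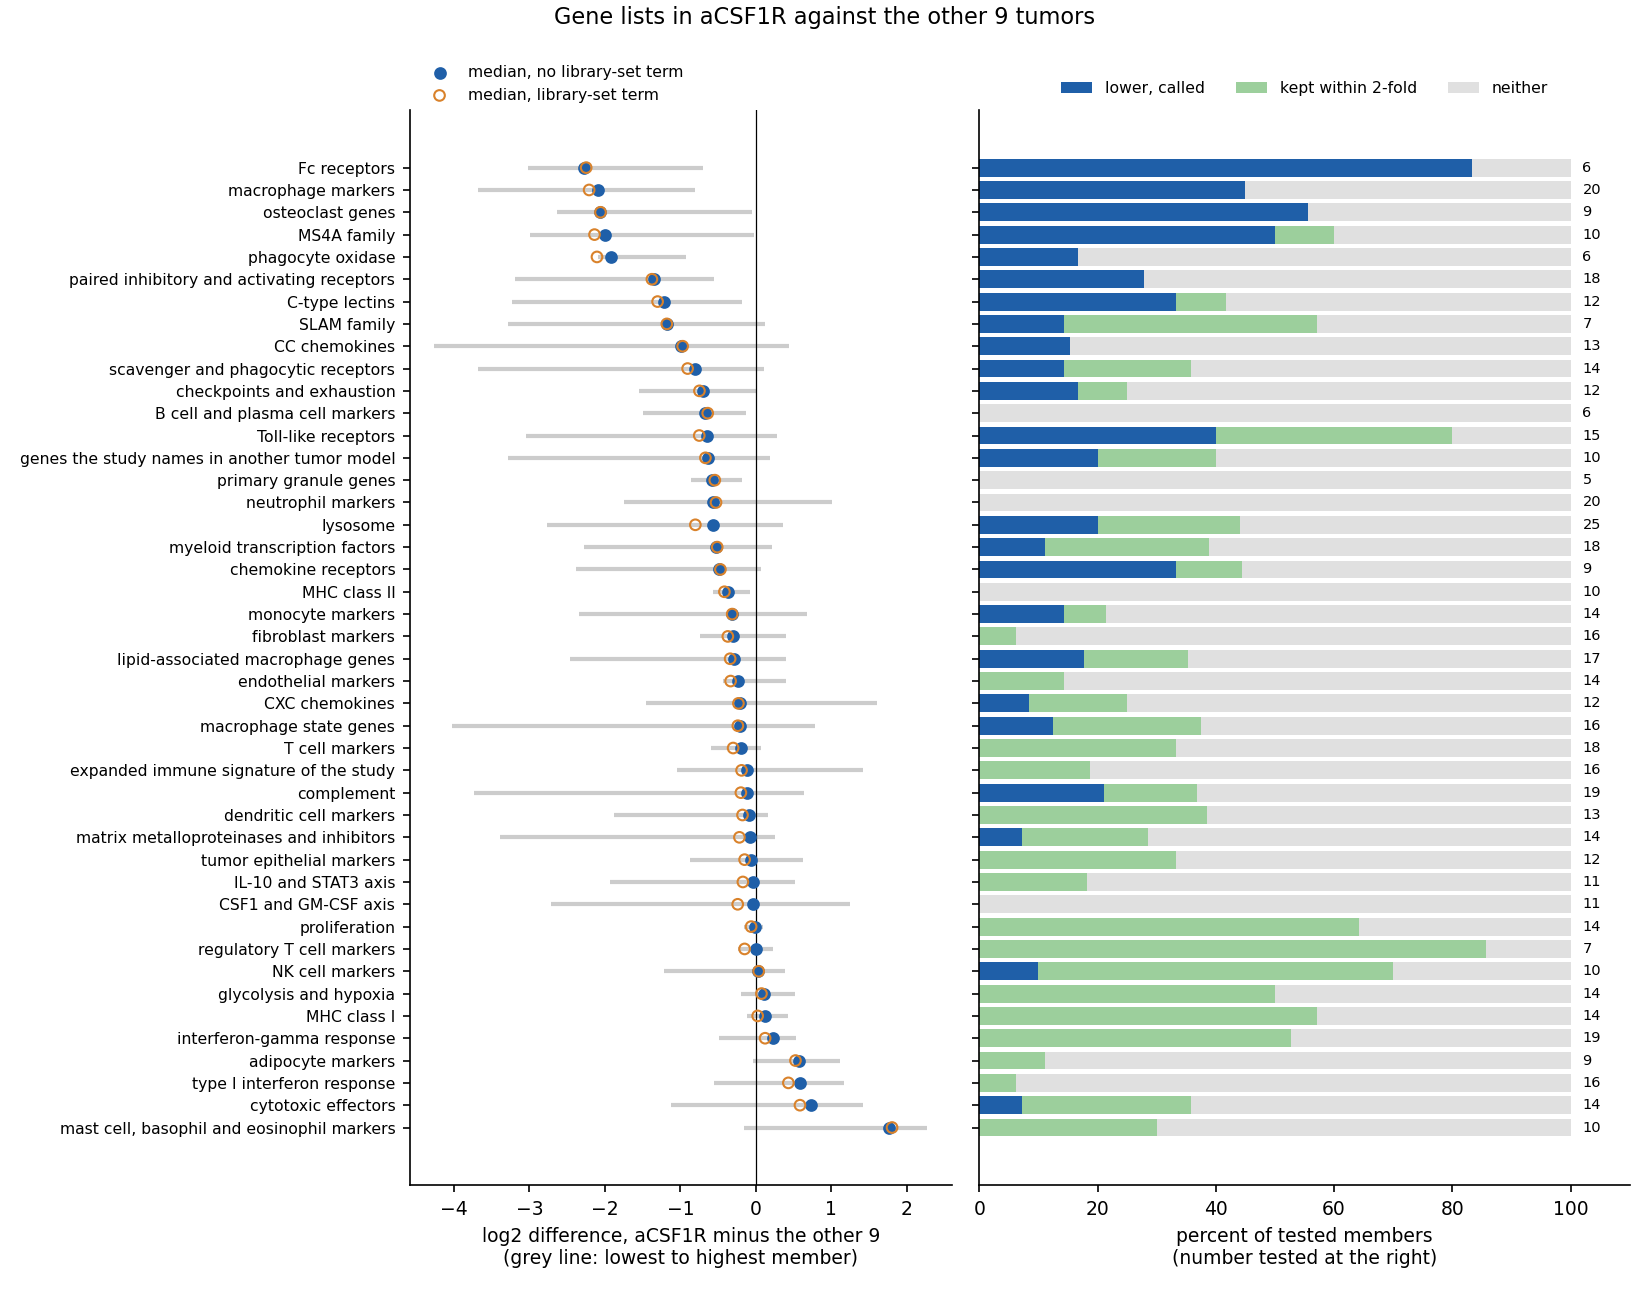
Left, for each list with at least 5 tested genes, the median log2 difference (blue point), the median with the library-set term (open orange point) and the range of its members (grey line). Right, the percent of tested members that fell, were kept or were neither, with the number tested; Fc receptors and macrophage markers stand at the top with medians of -2.28 and -2.09, and proliferation, MHC class I and interferon-gamma response show no blue.

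No T cell marker passed in either direction. Of 18 T cell markers 0 fell and 6 were kept, 13 with the library-set term, where all genes had kept shares of 51.6% and 85.9%. At a background of 1.03%, no falls in a list of this size is not a result about the list. The same holds for the other lists without falls, before and after it. The summed level of the T cell markers was 25.6 to 82.9 TPM in the aCSF1R tumors and 35.6 to 123 TPM in the others. Cd8a, the CD8 coreceptor, was at 5.22, 6.02 and 1.35 against 2.52 to 7.98 (median 4.09) TPM, and its partner Cd8b1 was kept at 3.97, 3.67 and 3.24 against 2.05 to 5.59 (median 3.72) TPM with an interval of -0.56 to 0.54. Cd4 was at 2.03, 1.23 and 0.0217 against 0.102 to 3.30 (median 1.23) TPM. The regulatory T cell factor Foxp3 was kept, at 1.02, 0.754 and 0.0651 against 0.258 to 1.31 (median 0.654) TPM, as were 6 of 7 genes of that list. With levels of a few TPM, these intervals hold on the log2(TPM + 1) scale, where a fold change of a low gene is understated.

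Among NK cell genes Klrk1, which encodes the activating receptor NKG2D, fell, and 6 of 10 were kept (51.6% over all genes). Klrk1 was at 2.80, 3.20 and 3.40 against 6.67 to 11.8 (median 8.14) TPM (difference -1.22 (SE 0.21), limma adjusted p = 0.0196), and did not pass when scaled by the median of ratios. Klrd1, another lectin receptor of NK cells, was kept at 8.84, 8.28 and 10.02 against 7.53 to 13.5 (median 8.84) TPM. Of 12 checkpoint genes Cd86 and Cd200r1 fell (1.03% over all genes), both expressed by myeloid cells. Cd86 was at 4.10, 3.72 and 3.65 against 9.30 to 24.0 (median 12.2) TPM. Pdcd1, which encodes PD-1, was at 2.05, 2.51 and 0.152 against 0.482 to 3.76 (median 1.11) TPM, and Cd274, its ligand, at 26.8, 23.7 and 4.58 against 5.85 to 42.9 (median 16.9) TPM. Havcr2, which encodes TIM-3 on T cells and macrophages, was at 5.92, 5.99 and 0.998 against 3.71 to 17.6 (median 8.65) TPM and fell with the library-set term (limma adjusted p = 0.0140). B cell and plasma cell genes had 0 falls of 6, with 1 reference library far above the rest for Jchain (1.32 to 312 (median 10.1) TPM).

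No MHC gene fell. Of 10 MHC class II genes 0 fell, with H2-Aa at 877, 884 and 1696 against 800.3 to 2058 (median 1583) TPM and H2-Eb1 at 719, 704 and 327 against 383 to 1214 (median 567) TPM. None was kept without the library-set term and 6 were with it, with a median of -0.37. Of 14 MHC class I genes 0 fell and 8 were kept, all 14 with the term (51.6% and 85.9% over all genes). B2m, the light chain, was at 3768, 4444 and 9655 against 3334 to 7698 (median 4601) TPM with an interval of -0.69 to 0.89, and Tap1, the peptide transporter, at 168, 192 and 106 against 91.0 to 207 (median 154) TPM.

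Genes induced by interferon gamma did not pass in either direction. Of 19 tested 10 were kept, 18 with the library-set term (51.6% and 85.9% over all genes), and none fell or rose, with a median of 0.22. Gbp2, a guanylate-binding protein, was at 348, 311 and 372 against 199 to 393 (median 305) TPM, and Ifng itself at 1.48, 1.56 and 1.71 against 0.721 to 3.05 (median 1.495) TPM. Cxcl9, a chemokine induced in macrophages, was at 105, 63.1 and 94.8 against 43.7 to 193 (median 129) TPM with an interval of -1.15 to 0.18. Cxcl10 was kept at 74.5, 68.4 and 26.3 against 16.5 to 107.5 (median 47.2) TPM. On the IL-10 side, Il10ra, the ligand-binding chain of the IL-10 receptor, was at 4.73, 3.74 and 0.510 against 7.42 to 19.8 (median 14.2) TPM without overlap (difference -1.93 (SE 0.45), limma adjusted p = 0.103, and 5.22e-05 with the library-set term). Stat3 and Socs3 had differences of 0.13 (SE 0.68) and -0.04 (SE 0.39), and 0 of 11 genes of this axis fell. An expanded immune signature of 16 genes was taken by the study from an earlier report, and its use here follows the study's choice. Of these genes 0 fell and 3 were kept (1.03% and 51.6% over all genes).

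Markers of proliferation, carcinoma and stroma did not pass the test. Of 14 proliferation genes 9 were kept and all 14 with the library-set term (51.6% and 85.9% over all genes), with a median of -0.02. Mki67 was at 61.5, 68.7 and 69.2 against 47.0 to 97.1 (median 61.6) TPM with an interval of -0.42 to 0.57, and Top2a at 375, 344 and 457 against 298 to 569 (median 349) TPM. Glycolysis and hypoxia genes were kept in 7 of 14, close to the share over all genes, with Ldha at 1468, 1265 and 875 against 843 to 1302 (median 1097) TPM. Of 12 epithelial markers 4 were kept, below that share, and none fell. Fibroblast and endothelial markers had 0 falls of 16 and 0 of 14, but few were bounded, 1 and 2, and levels spread widely between tumors. Col1a1, for example, was at 1272, 535 and 88.8 against 94.0 to 2597 (median 522) TPM and Pecam1 at 40.4, 33.9 and 5.90 against 10.001 to 49.8 (median 26.1) TPM. Of the matrix metalloproteinases and their inhibitors Mmp12 alone fell of 14, and Mmp3 and Timp1 were kept.

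**Figure D4:**
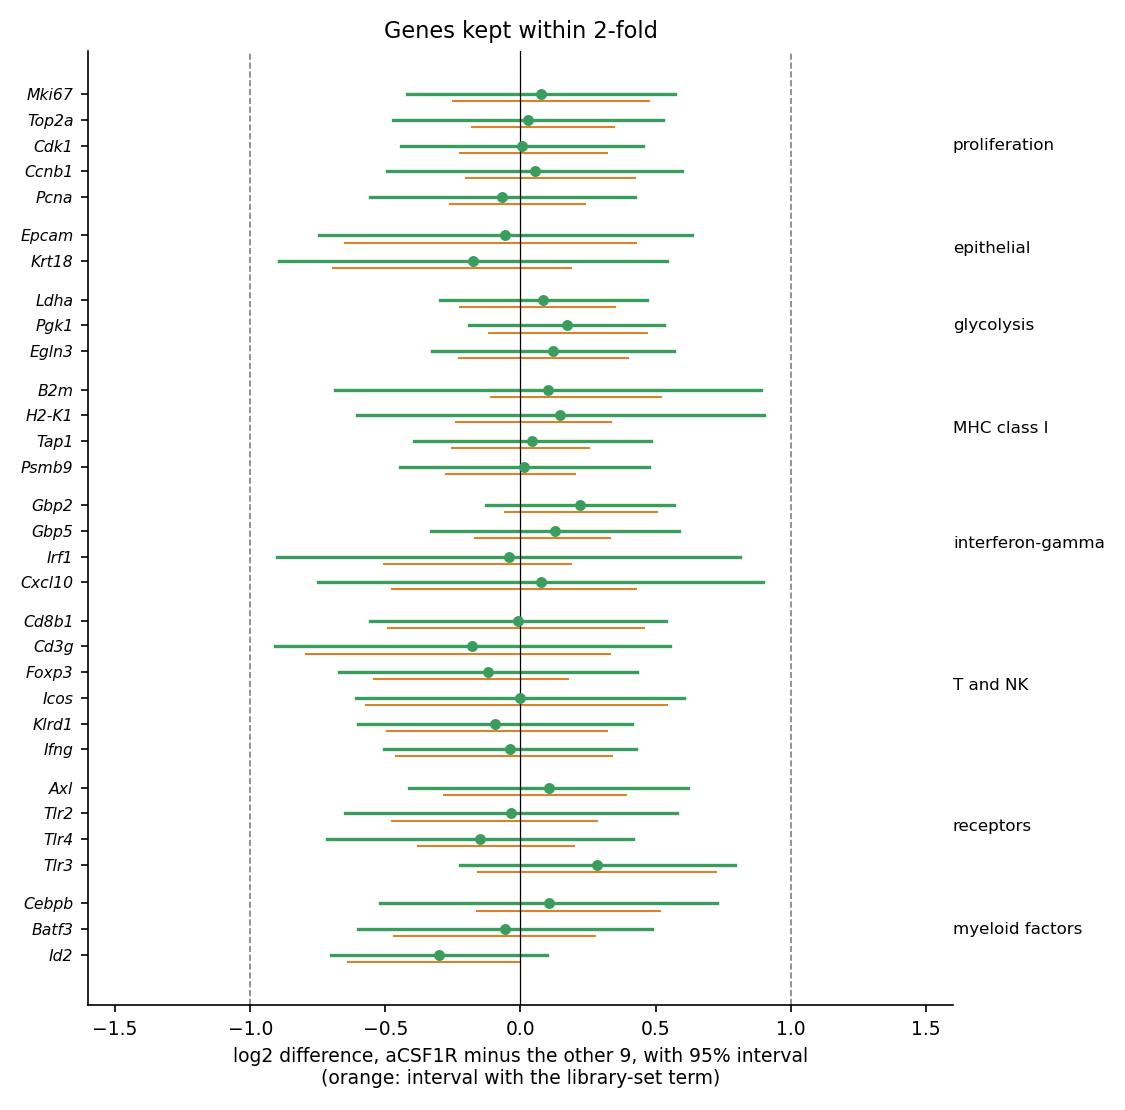
Log2 difference, aCSF1R minus the other 9 tumors, of 31 genes taken from those kept within 2-fold, with its 95% interval in green and the interval with the library-set term in orange; dashed lines mark 2-fold. All intervals lie between the dashed lines, by the definition of kept genes, and those with the library-set term are narrower for nearly all genes shown.

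No mast cell gene passed without the library-set term, although the list had the highest median. Of 10 mast cell, basophil and eosinophil markers 0 rose (0.00645% over all genes) and 4 did with the library-set term (0.0645% over all genes). The 4 include Fcer1a, which was tested only because of its aCSF1R levels. The list median was 1.76, with 8 positive, 2 negative and 3 kept members (51.6% kept over all genes). With the term none of the 10 passed without aCSF1R replicate 6 or without aCSF1R replicate 8, 6 passed without aCSF1R replicate 4, and without the term the median was 0.90 without aCSF1R replicate 8. Their summed level was 72.6 to 368 TPM in the aCSF1R tumors and 23.7 to 85.5 TPM in the others, and the ranges overlap. Cma1, mast cell chymase, was at 8.42, 15.6 and 33.1 against 1.21 to 9.07 (median 2.51) TPM, and its difference of 2.13 (SE 0.45) had a limma adjusted p of 0.0632, or 0.0180 with the term. Mcpt4, a second chymase, was at 9.77, 17.0 and 64.6 against 1.064 to 9.07 (median 3.68) TPM without overlap (limma adjusted p = 0.128 and 0.0231). Mcpt1, a protease of mucosal mast cells, was at 3.04, 49.98 and 27.8 against 0.333 to 3.13 (median 1.57) TPM, with aCSF1R replicate 4 within the reference range (limma adjusted p = 0.0756 and 0.0161). With the term, Mcpt1 did not pass without aCSF1R replicate 6 or 8 either (limma adjusted p = 0.0652 and 0.149).

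The tryptases, the other main proteases of mast cells, overlapped between groups. Tpsb2 was at 15.9, 28.9 and 49.99 against 2.62 to 16.4 (median 7.22) TPM and Tpsab1 at 16.3, 43.9 and 132 against 4.08 to 25.96 (median 9.86) TPM. Their limma adjusted p-values were 0.140 and 0.226. With the library-set term they were 0.0454 and 0.0683, so Tpsb2 passed only with it. Fcer1a, the chain of the IgE receptor that binds IgE, was at 1.37, 2.39 and 14.6 against 0.222 to 1.35 (median 0.586) TPM, again without overlap and called with the library-set term (limma adjusted p = 0.299 without and 0.0470 with it). It reached 1 TPM in only 2 reference libraries and so was tested only because of its aCSF1R levels, and its call is no support for a rise. Cpa3, mast cell carboxypeptidase, was at 6.08, 11.1 and 57.9 against 0.873 to 7.26 (median 3.72) TPM (limma adjusted p = 0.417 and 0.0606). Mcpt8, the basophil protease, and Gata2 and Ear2 were kept, with Mcpt8 at 10.02, 13.7 and 10.1 against 4.32 to 31.8 (median 12.7) TPM. Cpa3, Mcpt4 and Fcer1a were above the others within both library sets. aCSF1R replicate 8, the higher-sum library, had the highest value for Cma1, Mcpt4, Tpsb2, Tpsab1, Cpa3 and Fcer1a.

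Granzymes, proteases of cytotoxic lymphocytes, did not pass either. Gzmb was at 20.5, 71.2 and 53.2 against 12.04 to 25.2 (median 12.6) TPM, with a difference of 1.41 (SE 0.38) that did not pass (limma adjusted p = 0.221 and 0.0625 with the library-set term). Gzma was at 8.76, 18.02 and 42.3 against 1.70 to 11.4 (median 9.19) TPM. Gzmc to Gzmg had differences of 1.12, 0.94, 0.58, 1.15 and 1.42 and overlapped between groups, and against the control tumors alone those of Gzmd, Gzmf and Gzmg were -0.09, -0.12 and -0.11. Nkg7 and Fasl, other genes of cytotoxic cells, were kept, and Prf1, perforin, was at 7.84, 26.3 and 2.21 against 1.32 to 18.7 (median 3.74) TPM. Srgn, the proteoglycan of granules in many blood cells, fell from 200.2 to 398 (median 277) to 121, 103 and 150.4 TPM (limma adjusted p = 0.0464), a call not made under scaling by the median of ratios.

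The one call of a rise was that of Snord49b, a small nucleolar RNA at chr11:62603079-62603150 (GRCm38). Its levels after aCSF1R were 5.01, 5.26 and 3.78 TPM, and among the others it was listed at 0 in 8 libraries and found at 3.83 TPM in BF10 replicate 6. The difference was 2.24 (SE 0.40), with a limma adjusted p of 0.0238. It met the filter of 1 TPM in 3 libraries only through the aCSF1R libraries, so the call rests on a gene admitted by the level compared. Small nucleolar RNAs are not polyadenylated, and the libraries were made by selection for polyadenylated RNA. Among the other transcripts with the smallest unadjusted p were a pair of short RNAs at low levels. Gm22355 was at 1.41, 1.49 and 1.063 against 0 to 1.37 (median 0) TPM. The let-7d precursor Mirlet7d was at 1.02, 0.886 and 1.617 against 0 to 2.08 (median 0.0336) TPM, with BF10 replicate 3 the highest of all. Their limma adjusted p-values were 0.0864 and 0.289. Both met the filter only with the aCSF1R libraries, so these values are no support for a rise.

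Most type I interferon genes, and the cytokine genes Cxcl1 and Csf3, had positive differences that did not pass. The cytokine genes Il1a, which fell, and Il1b had negative differences. Of 16 interferon genes none rose, with a median of 0.59. Ifit3b, an antiviral protein, was at 12.9, 29.2 and 15.6 against 2.63 to 13.4 (median 5.79) TPM (difference 1.43 (SE 0.40), limma adjusted p = 0.247), and Isg15 at 100.2, 172 and 41.6 against 25.5 to 109 (median 67.4) TPM. Cxcl1, a chemokine for neutrophils, was at 66.0, 86.5 and 237 against 17.1 to 86.1 (median 31.7) TPM (limma adjusted p = 0.483, and 0.0740 with the library-set term), and Csf3, the growth factor of neutrophils, at 131, 124 and 320.0 against 19.02 to 151 (median 73.0) TPM (limma adjusted p = 0.968). Adipocyte genes had a median of 0.57 and followed single tumors, with Adipoq at 29.6, 47.1 and 0.174 against 0.449 to 44.8 (median 11.4) TPM.

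**Figure D5:**
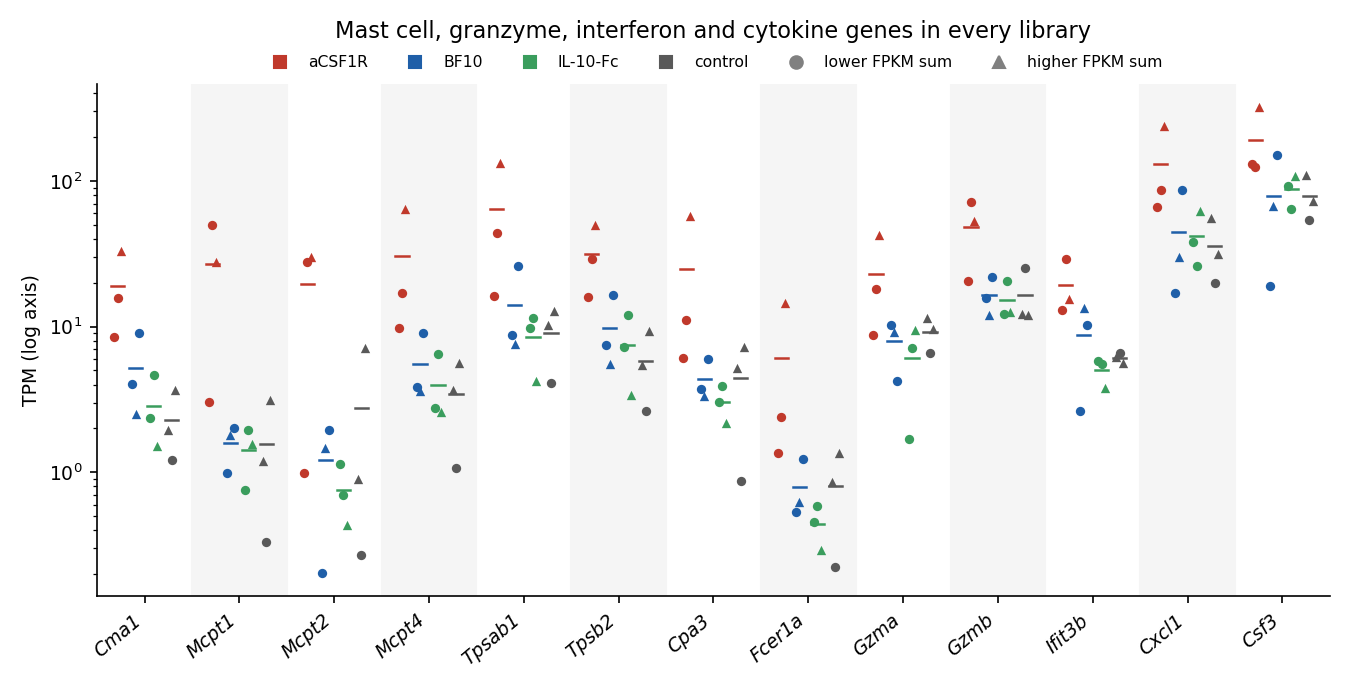
TPM (log axis) of mast cell proteases, Fcer1a, granzymes, Ifit3b, Cxcl1 and Csf3 in all 12 libraries, with short lines for group means, colors for groups, circles for lower-sum and triangles for higher-sum libraries. The red aCSF1R points lie above all others for Mcpt4 and Fcer1a and overlap them for the other genes shown.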

How the data were processed

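RNA of 12 orthotopic 4T1 tumors was extracted with TRIzol, prepared with the TruSeq Stranded mRNA kit and sequenced on an Illumina NextSeq instrument. The values used are FPKM per gene and library as deposited by the authors (55401 genes, 34194 above 0). The submitters' processing notes name mm10/GRCm38, STAR 2.7.5a, RSEM 1.3.3 and DESeq2 1.28.0, and the tool that computed FPKM is not given in the sources used here. Deposited tables of the authors' own comparisons (fold changes and p-values) were not used. All per-sample columns matched a title (0 did not).

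FPKM was rescaled to TPM, so that every library sums to the same total, which makes shares comparable but lets a large change in some transcripts shift the rest. Genes with at least 1 TPM in at least 3 libraries (15504) were tested in limma 3.58.1 (R 4.3.3) on log2(TPM + 1) with 1 mean per treatment group, 8 residual degrees of freedom and an intensity trend. The contrast was aCSF1R minus the mean of the 3 other group means. Since read counts were not used here, depth was estimated only relatively, from the smallest steps of low genes. Csf1r was also compared by a two-sided exact permutation test over 220 arrangements. The fit was tested on simulated data.

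Named genes were the 15 largest falls without overlap, the rises that passed or had the smallest unadjusted p up to 10, Csf1r and its ligands, called members of 46 gene lists and up to 4 further members of a list by size or level; other list members were added for their roles after their values were seen. The gene lists and members were chosen with earlier results of these data known. Promoters came from RefSeq tables of GRCm38.p6. A few members of the lists are counted but not reported here by name.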

Additional observations from a re-analysis of the deposited data

Results flagged for a closer look

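Over the 9 reference tumors of each of the 26 named genes, the gap of the highest or lowest library to its nearest neighbour was compared with the range, and chance flags about 1 in 20 such groups. Snord49b stood out with a ratio of 1.000, because BF10 replicate 6 was at 3.83 TPM and the other 8 libraries were listed at 0. Gm22355 stood out with a ratio of 1.000, because IL-10-Fc replicate 4 was at 1.37 TPM and the other 8 were listed at 0. Both are short RNAs at low levels.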

How the results depend on the processing

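The main counts were 159 lower, 1 higher and 8003 kept. Lower genes numbered 509 with the library-set term, 8 with a replicate block, 97 without BF10 and 79 without IL-10-Fc tumors. Higher genes numbered 3 with median-of-ratios scaling, 2 with no filter, 0 at a minimum of 5 TPM, 3 with 2 group means, 10 with the set term, 6 and 22 in the lower-sum and higher-sum libraries alone, 2 without BF10 and 0 without control tumors. Kept genes numbered 26132 with no filter, 13311 with the set term, 12341 in the lower-sum libraries and 2407 with the block. Settings chosen after seeing the data gave, as lower, higher and kept, 460, 12 and 13487 (set term with median of ratios), and, with the set term and without aCSF1R replicate 4, 6 or 8, 480, 18 and 12204; 320, 2 and 12501; and 312, 12 and 12591. The set term gave 429, 328 and 300 genes lower than in BF10, IL-10-Fc and control. Leaving out 1 library at a time gave 78 to 161 lower, 0 to 3 higher and 5600 to 7973 kept, with 78 without aCSF1R replicate 6 and 99 without aCSF1R replicate 8. The causes were not tested, beyond fewer samples or more genes where a setting has them. The 15 leading falls passed in all 28 settings without the block, with a largest limma adjusted p of 0.0382, and 6 of the 15 passed with it. Snord49b could be tested in 27 of these settings and did not pass in 12. The median difference of all genes, 0.03, was -0.30 in the higher-sum libraries, 0.35 without aCSF1R replicate 8 and 0.52 with the block. Deviations of same-numbered libraries correlated from -0.66 to 0.42 over 7 pairs. Pairs within a library set were positive (0.42 and 0.35), and pairs across the sets were negative. The correlations thus followed the library sets and cannot tell whether replicate numbers pair the tumors. FPKM without read counts leaves the depth behind single values unknown.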

Other observations

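Among the 159 genes that fell, 92 were in none of the gene lists, and those named here were chosen after their values were seen. Alox5ap, which presents arachidonic acid to the enzyme that starts leukotriene synthesis, was at 29.1, 16.9 and 27.5 TPM in aCSF1R replicates 4, 6 and 8 and at 80.6 to 289 (median 95.1) TPM in the others. Tbxas1, thromboxane synthase, was at 2.45, 2.05 and 0.662 against 11.8 to 19.3 (median 16.4) TPM, and Hpgds, a prostaglandin D synthase, at 1.46, 0.508 and 0.195 against 4.67 to 7.68 (median 6.32) TPM. Cysltr1, a receptor for cysteinyl leukotrienes, differed by -2.32 (SE 0.30). The limma adjusted p-values of these 4 genes were 0.00927, 0.000508, 0.00113 and 0.00239. Ptgs1, a cyclooxygenase, differed by -0.97 (SE 0.59) and did not pass.

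P2ry12, known as a marker of microglia, was at 1.17, 0.804 and 0.911 against 5.42 to 11.1 (median 6.86) TPM, and P2ry13, its neighbour in the family, at 0.602, 0.623 and 1.12 against 3.28 to 6.46 (median 5.04) TPM. Gpr34, Gpr65, a sensor of protons, and Gpr183, a receptor for oxysterols, differed by -2.46 (SE 0.25), -1.97 (SE 0.27) and -1.55 (SE 0.26). Pycard, the adaptor of inflammasomes, was at 4.71, 3.66 and 4.63 against 18.7 to 35.2 (median 23.6) TPM, and the cytokine gene Il1a at 4.80, 3.05 and 4.21 against 8.35 to 21.2 (median 13.1) TPM. Ptprc, which encodes CD45 of all leukocytes, was at 16.7, 15.02 and 15.3 against 29.7 to 72.1 (median 42.4) TPM and Coro1a at 33.3, 31.4 and 20.9 against 95.8 to 251 (median 126) TPM, and their adjusted p from limma was 0.0221 and 0.00122.

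Several chymase and granzyme genes lie in 1 stretch of chromosome 14, at chr14:55941451-56262260 on GRCm38. Its ends were set at Cma1 and Gzmb, both named for small unadjusted p among rises. A count over the stretch is therefore no support for a rise. Of its 15 annotated protein-coding genes 12 were tested, and 10 of these had positive differences. The exceptions were Mcpt8 with -0.15 (SE 0.33) and Ctsg with -0.58 (SE 0.85). No gene of the stretch passed without the library-set term.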
